A study of Danio rerio with 2 samples.

Results

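Cytochrome P450 genes of families 1 to 3 were followed in 2 zebrafish RNA sequencing libraries, 1 pool of adult livers and 1 pool of whole embryos. The genes were every feature whose name begins with cyp, a family number of 1, 2 or 3 and a letter. To these zgc:101673, which is now called cyp2aa8, was added, although its own name lacks that form. Another 23 features that current symbols place in these families were left out, among them other cyp2aa features. The choice was made with earlier results of these data known. The set held 22 of the 27098 gene features, and all 22 had at least 10 reads in 1 pool or both. Both adults and embryos had been kept for 48 h with 9 compounds that harm the human liver, which were valproic acid, tetracycline, thioacetamide, paraquat, 17a-ethynylestradiol, cyclosporine A, chlorpromazine, amiodarone and acetaminophen. RNA of dissected livers made up the adult pool, and RNA of batches of 15 whole embryos made up the embryo pool, with equal amounts from each sample. Exposures were thus mixed within each pool, no value can be assigned to 1 compound, and both pools carry the exposure. No strain, embryo age or adult sex is stated in the labels, and unexposed fish were not analysed here. Below, livers and embryos stand for these pools.

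Cytochromes P450 are heme enzymes of the endoplasmic reticulum that insert 1 oxygen atom into fatty molecules, with electrons passed on by P450 oxidoreductase and in part by cytochrome b5. Families 1 to 3 carry out much of the first step of drug and pollutant metabolism in the vertebrate liver, and also act on fatty acids and steroids. Family 1 genes are the classic targets of the aryl hydrocarbon receptor, which is activated by dioxins and polycyclic aromatic compounds, and mammalian CYP3A genes are targets of the pregnane X receptor. Family 2 is the largest and has expanded in fish by tandem duplication.

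The libraries held 13020149 gene reads for the liver pool and 11408727 for the embryo pool. Levels are given as CPM, the reads of a gene scaled to these totals, and, between genes, as the authors' RPKM, which also divides by exon length. A ratio is the CPM of the liver pool over that of the embryo pool, with its exact 95% interval for counting error in brackets. With 1 library for each source there is no replicate check and no p-value, and where mates or PCR copies were counted apart the intervals are too narrow. A gene was called where the whole interval lay at or beyond 4-fold and the higher pool had at least 10 reads. The labels fitted the hepatocyte markers, since all 8 were called higher in livers, beside 3.35% of all measured features. With exon reads 7 of the 8 were called, beside 3.38%. These markers summed to 69547 CPM in livers, against 2717 CPM in embryos. Muscle markers summed to 2.53 CPM in livers and 31870 CPM in embryos. The 4 pancreas markers summed to 650 CPM in livers and 2326 CPM in embryos. Of these 1 was called, in embryos, beside 30.9% of all measured features. Of the 6 intestinal markers 5 were called higher in embryos, and 2 of 6 under TMM scaling, beside 30.9% and 15.8% of all measured features. The list summed to 866 CPM in livers, of which apoa4 made 782, and 1583 CPM in embryos, of which apoa4 made 518. For a tissue pool set against a whole body, fewer cells of a type and less RNA per cell cannot be told apart.

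The 22 genes took 38348 reads in livers, 0.295% of the library, against 14343 reads in embryos, 0.126%, a ratio of 2.34 (2.30 to 2.39) that was called under TMM scaling, at 5.98. Their make-up differed between the pools, a comparison within each pool that no scaling of the libraries can alter. In the liver pool cyp2j28 held 29.7% of the reads of the 22 genes (29.2 to 30.1), cyp1a 21.1% (20.7 to 21.5) and cyp3a65 15.4% (15.0 to 15.7). In the embryo pool cyp3a65 alone held 46.9% (46.1 to 47.7), followed by cyp2j27 with 8.72% and cyp2j28 with 8.51%, and cyp1a held 2.23% (1.996 to 2.49). The leading 3 of the 22 genes took 66.1% of these reads in livers and 64.2% in embryos, while the genes and their order differed. The order rests on total reads without regard to exon length. With unique reads cyp3a65, at 5882, stood above cyp1a, at 5776, in livers. In embryos the share intervals of cyp2j27 (8.27 to 9.20) and cyp2j28 (8.06 to 8.98) overlapped. The order also depends on the choice of genes. The feature cyp2y3 (zgc:110692), left out by name, had 8930 reads in livers, more than cyp1a, and 1998 in embryos, more than cyp2j27. By family, the 3 members of family 1 held 23.9% of the reads of the 22 genes in livers and 4.18% in embryos. The 16 of family 2 held 55.2% and 39.96%, and the 3 of family 3 held 20.8% and 55.9%. Most of the 23 features left out, and most of their reads, were of family 2. The lead of family 3 over family 2 in embryos rests on leaving them out.

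**Figure D1:**
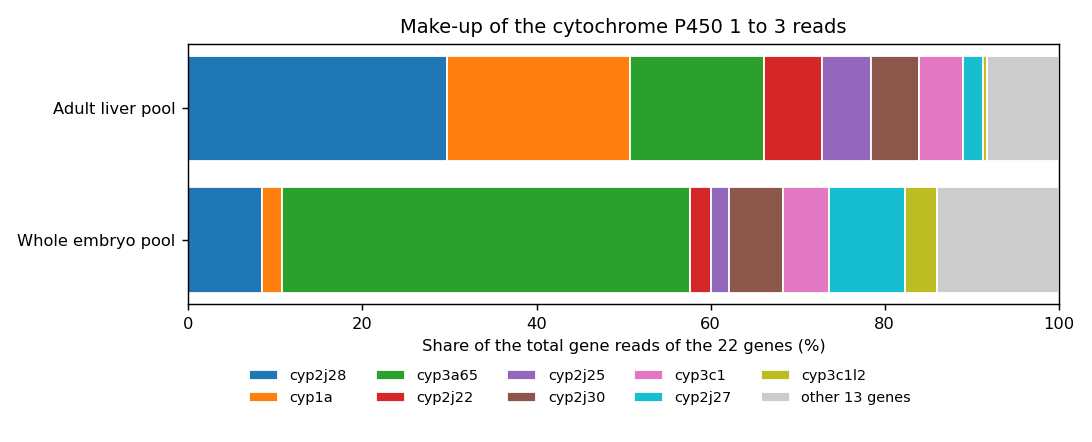
Share of the total gene reads of the 22 genes (x axis, percent) in the adult liver pool (upper bar) and the whole embryo pool (lower bar), with 9 genes in colour and the other 13 in grey. The cyp3a65 segment is 15.4% of the liver bar and 46.9% of the embryo bar, and the cyp1a segment is 21.1% and 2.23%.

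Of the 22 genes, 6 were called higher in livers, 3 were called higher in embryos and 13 were called in neither. Over all 21750 features with at least 10 reads in either pool, 3.35% were called higher in livers and 30.9% in embryos, against 27.3% and 13.6% of the 22 genes. The median log2 ratio was 0.57 for the 22 genes and -1.60 for all measured features, and 18 of the 22 lay above the median of all. Ratios rest on the scaling of the libraries, since TMM factors shifted every log2 ratio by 1.35 toward the liver pool. Under TMM scaling 10 of the 22 genes were called higher in livers and 2 in embryos, against 8.06% and 15.8% of all measured features. Size factors also called 10 and 2 of them, where 8.19% and 15.5% of all features were called. Unique reads called 7 and 3, beside 3.45% and 30.3% of features, and exon reads 6 and 3, beside 3.38% and 36.4%. Values below use library totals, and the TMM value is given where it turned the direction or the call of one of the 22 genes.

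**Figure D2:**
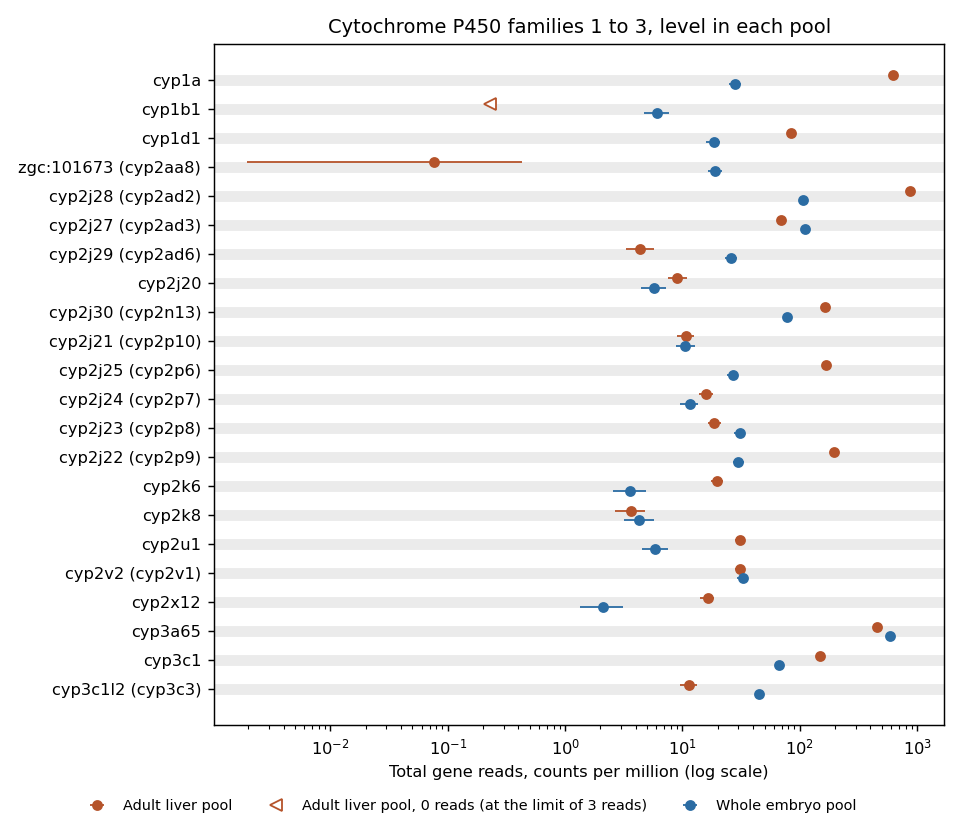
Level of each of the 22 genes in CPM (x axis, log scale), with the liver pool above the embryo pool in each row and bars for the 95% counting interval. The open triangle marks cyp1b1, which had 0 liver reads and is drawn at the limit of 3 reads, 0.230 CPM.

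Family 1 held the gene with the highest liver to embryo ratio and 1 gene with no liver reads. Its best known gene, cyp1a, which oxidises aromatic pollutants and is a common marker of exposure to them, had 8091 reads (621 CPM) in livers and 320 reads (28.0 CPM) in embryos. Its ratio was 22.2 (19.8 to 24.9). Set against cyp3a65 within the same library, cyp1a had 1.37 reads for each cyp3a65 read in livers and 0.0475 in embryos, as read counts without regard to length. With unique reads these values were 0.982 in livers and 0.0341 in embryos, so cyp1a no longer exceeded cyp3a65 in livers. In RPKM cyp1a stood at place 2 of the 22 genes in livers, at 236, and at place 13 in embryos, at 10.2. With unique exon reads it stood at place 3 in livers, at 168, below cyp3a65 at 224, and again at place 13 in embryos, at 7.30.

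The other family 1 genes gave 1 value on each side. cyp1d1, a relative of cyp1a that is a pseudogene in humans, had 1085 reads (83.3 CPM) in livers and 210 reads (18.4 CPM) in embryos. Its ratio of 4.53 (3.90 to 5.27) missed the call with library totals and was called at 11.6 under TMM scaling. cyp1b1, which acts on estradiol and retinoids in mammals and is known from the eye, had 0 reads in livers and 69 reads (6.05 CPM) in embryos. By the lower limit of its interval it was at least 20.8-fold higher in embryos, and at least 8.14-fold under TMM scaling. With exon reads alone the lower limit was 12.4-fold. Many of those embryo reads did not come from exons, with 29 of 69 (42.0%, 30.2 to 54.5) outside the annotated exons and 1 of 40 exon reads across a junction. In the whole embryo library 14.4% of gene reads lay outside exons and 22.03% of exon reads crossed a junction. The embryo level of cyp1b1 in RPKM, which takes exon reads only, was 1.04.

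Among the 22 genes, most reads of family 2 came from 1 tandem array. The family 2 features left out by name lay on other chromosomes. A run of 11 genes, 10 named cyp2j in the files and cyp2v2, lay side by side on chromosome 20 within 100.5 kb, with no other feature between the first and the last. Neighbouring gene regions were 344 to 6252 bases apart. Current names place them in several subfamilies, namely cyp2n13 (cyp2j30 in the files), cyp2ad6, cyp2ad2 and cyp2ad3 (cyp2j29, cyp2j28 and cyp2j27), cyp2v1 (cyp2v2), cyp2p6 to cyp2p10 (cyp2j25 to cyp2j21) and cyp2j20. Their human counterpart CYP2J2 is an epoxygenase of arachidonic acid. Together the 11 genes had 20270 reads in livers and 5333 in embryos, a ratio of 3.33 (3.23 to 3.43) that was called under TMM scaling, at 8.50. Single genes of the array ran from a ratio of 8.17 down to 0.169, a 48.4-fold range.

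The liver reads of the array came mainly from cyp2j28. This gene had 11379 reads (874 CPM) in livers and 1221 reads (107 CPM) in embryos, a ratio of 8.17 (7.70 to 8.67). It held 56.1% of the array's reads in livers (55.45 to 56.8) and 22.9% in embryos (21.8 to 24.05), and at 457 RPKM it was the highest of the 22 genes in livers. The genes on either side of it did not share this pattern. cyp2j29, its neighbour on one side, had 57 reads (4.38 CPM) in livers and 296 reads (25.9 CPM) in embryos. It was 5.93-fold higher (4.45 to 8.01) in embryos, a call that was lost under TMM scaling at a ratio of 0.431. cyp2j27, its neighbour on the other side, had 897 reads (68.9 CPM) in livers and 1251 reads (109.7 CPM) in embryos. Its ratio of 0.628 (0.576 to 0.685) turned to 1.60 under TMM scaling. Per exon length cyp2j28 was 12.8 times as abundant as cyp2j27 in livers, and in embryos both were alike, at 55.4 RPKM for cyp2j28 and 55.1 RPKM for cyp2j27. Almost all reads of these 3 genes had a single position, from 98.2% to 99.9% in each pool.

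**Figure D3:**
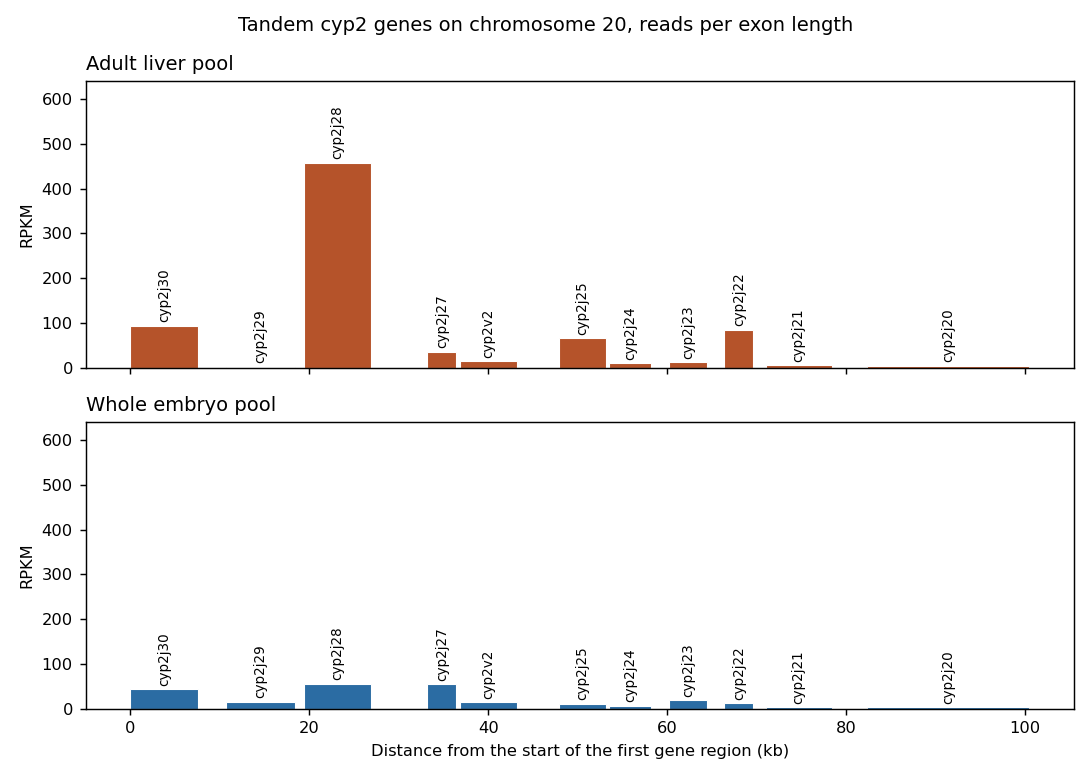
RPKM (y axis, same scale in both panels) of the 11 tandem genes on chromosome 20 by distance from the start of the first gene region (x axis, kb), in the adult liver pool (upper panel) and the whole embryo pool (lower panel). Each bar spans a gene region, and cyp2j28 stands at 457 RPKM in the liver panel and 55.4 RPKM in the embryo panel.

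A pair further along the array was also called higher in livers. cyp2j25 (cyp2p6) had 2156 reads (166 CPM) in livers and 305 reads (26.7 CPM) in embryos, a ratio of 6.19 (5.49 to 7.01). cyp2j22 (cyp2p9) had 2549 reads (196 CPM) in livers and 340 reads (29.8 CPM) in embryos, a ratio of 6.57 (5.86 to 7.38). Between these lie cyp2j24 (cyp2p7), with 207 reads in livers, 131 in embryos and a ratio of 1.38 (1.11 to 1.74), and cyp2j23 (cyp2p8). cyp2j23 had 243 reads (18.7 CPM) in livers and 350 reads (30.7 CPM) in embryos, a ratio of 0.608 (0.514 to 0.719), which became 1.55 under TMM scaling. The pair of called cyp2p genes thus stood on either side of genes with lower ratios.

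The other 4 genes of the array were called in neither pool with library totals. cyp2j30 (cyp2n13), at the edge of the array, had 2119 reads (163 CPM) in livers and 881 reads (77.2 CPM) in embryos. Its ratio of 2.11 (1.95 to 2.28) was called under TMM scaling, at 5.38. cyp2v2 had 406 reads in livers and 372 in embryos, a ratio of 0.956 (0.829 to 1.104) whose interval includes 1 and which was 2.44 under TMM scaling. cyp2j21 (cyp2p10) had 139 reads in livers and 121 in embryos, at a ratio of 1.01 (0.783 to 1.30), and cyp2j20 had 118 and 65, at 1.59 (1.17 to 2.19). Reads of cyp2j21 lay outside its exons in 19.4% of cases in livers (13.2 to 27.0) and 40.5% in embryos (31.7 to 49.8). Those of cyp2j20 did so in 20.3% of cases in livers (13.5 to 28.7) and 23.1% in embryos (13.5 to 35.2). For all 22 genes together these shares were 1.74% in livers and 3.35% in embryos, and for the whole libraries 9.87% and 14.4%. cyp2j27 was the gene with most reads across an intron-exon boundary in embryos, with 14 in livers and 52 in embryos.

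**Figure D4:**
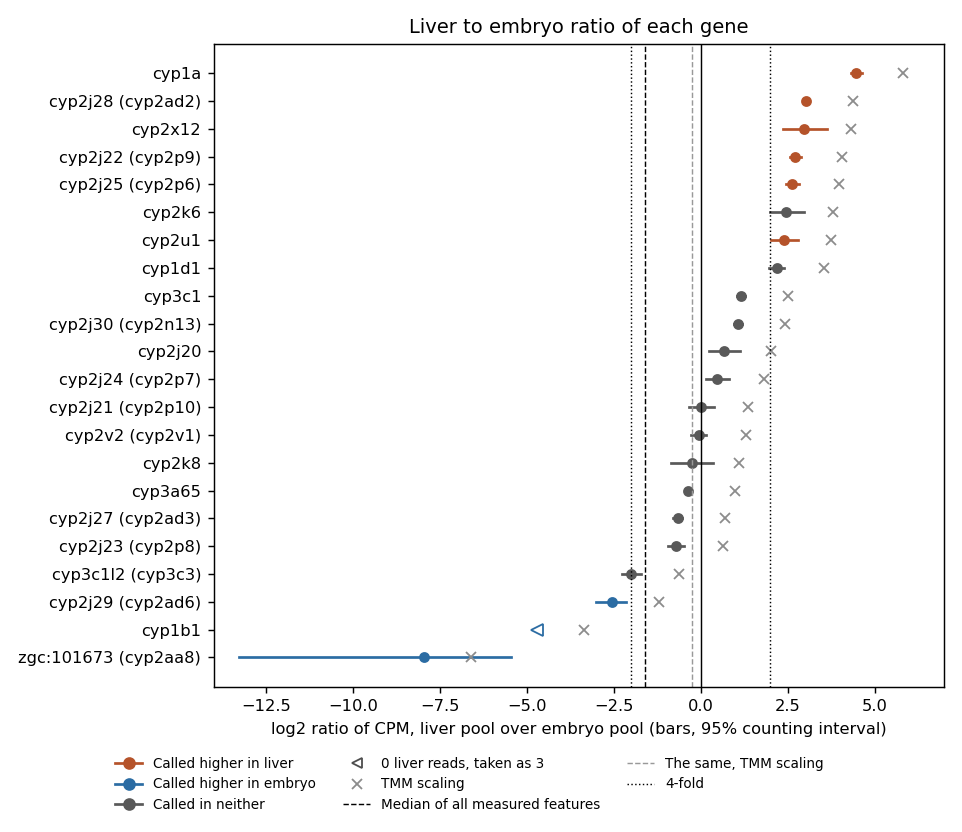
Log2 ratio of the liver pool over the embryo pool for each of the 22 genes (points, with bars for the 95% counting interval) and under TMM scaling (crosses), where cyp1b1 is drawn with 3 liver reads in place of 0. The genes run from cyp1a at 4.47 down to cyp2aa8 at -7.96, and the dashed lines mark the median of all measured features at -1.60 with library totals and -0.25 under TMM scaling.

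Outside the array, family 2 held genes called in livers and 1 gene with almost no liver reads. cyp2u1, which hydroxylates long-chain fatty acids in humans, had 400 reads (30.7 CPM) in livers and 67 reads (5.87 CPM) in embryos, a ratio of 5.23 (4.03 to 6.88). Of its reads 4.25% in livers and 25.4% in embryos (15.5 to 37.5) lay outside exons, and with exon reads alone the ratio was 6.38. cyp2k6, whose zebrafish enzyme is known to activate aflatoxin, had 256 reads (19.7 CPM) in livers and 41 reads (3.59 CPM) in embryos. Its ratio of 5.47 (3.92 to 7.81) just missed the call and was called with unique reads, at 5.67, and under TMM scaling, at 13.97. cyp2k8 had 47 reads in livers and 49 in embryos, a ratio of 0.840 (0.551 to 1.28) that was 2.15 under TMM scaling. Per exon length cyp2k6 was 5.16 times as abundant as cyp2k8 in livers and 0.752 times in embryos.

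zgc:101673 (cyp2aa8), of a subfamily described in fish, had 1 read in livers and 218 reads (19.1 CPM) in embryos. The single liver read lay outside the exons and had several positions, and of the embryo reads 95.4% (91.7 to 97.8) had a single position. Its embryo to liver ratio of 249 carried a wide interval of 44.2 to 9871, set by the single read. The 8 other cyp2aa features by current symbol had 21 to 520 liver reads. Of these, 226 of 247 for cyp2aa7 (zgc:171947) and 47 of 53 for cyp2aa9 (zgc:195056) lay outside exons. For cyp2aa6 (wu:fc21h01), with 121 liver reads, 0 exons are annotated, so exon reads could not be counted. With total gene reads the ratios ranged from cyp2aa2 (zgc:153597 in the files), with 493 reads in livers and 35 in embryos and a ratio of 12.3 (8.75 to 17.9), to cyp2aa1 (zgc:162502), with 94 and 193 reads and a ratio of 0.427 (0.330 to 0.549) that was 1.09 under TMM scaling. With exon reads cyp2aa9 had 6 in livers and 54 in embryos and was called in embryos, at an embryo to liver ratio of 10.8 (4.66 to 30.7).

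cyp2x12 had 213 reads (16.4 CPM) in livers and 24 reads (2.10 CPM) in embryos, a ratio of 7.78 (5.09 to 12.4). Its unique share was the lowest of the 6 genes called higher in livers, since 37 of its liver reads and 6 of its embryo reads had a single position. With unique reads its ratio of 5.74 was not called. A second gene on the same chromosome, cyp2x10.2 (zgc:136371 in the files), had 600 reads in livers and 37 in embryos, with 26.3% and 18.9% unique.

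Family 3 was the only one of these families whose summed ratio lay below 1, at 0.873 (0.847 to 0.901), and it was 2.23 under TMM scaling. Most of its embryo reads, 6730 of 8012, were of cyp3a65. The 2 cyp3c genes together had a ratio of 1.43 (1.33 to 1.53). cyp3a65, known from zebrafish larvae as an intestinal and hepatic drug-oxidising enzyme, had 5892 reads (453 CPM) in livers and 6730 reads (589.9 CPM) in embryos. Its ratio was 0.767 with library totals and 1.96 under TMM scaling, so its direction depends on the scaling. Its place among all features by RPKM was close in both pools, 330 in livers and 285 in embryos, whereas cyp1a stood at 322 in livers and 6724 in embryos. Among the 6 intestinal markers counted above, 5 had more embryo than liver CPM, beside 17974 of all 21750 measured features. The other marker, apoa4, had a liver to embryo ratio of 1.51. Under TMM scaling 2 of the 6 were called higher in embryos, beside 15.8% of measured features, and fabp6 had 0 liver reads. The part of intestinal cells in the embryo level of cyp3a65 was not tested.

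The cyp3c genes of family 3, a fish subfamily, parted from each other. cyp3c1 had 1945 reads (149 CPM) in livers and 765 reads (67.1 CPM) in embryos, a ratio of 2.23 (2.05 to 2.43) that was called under TMM scaling, at 5.69. cyp3c1l2 (now cyp3c3), on the same chromosome, had 148 reads (11.4 CPM) in livers and 517 reads (45.3 CPM) in embryos. Its embryo to liver ratio of 3.99 (3.31 to 4.82) was not called, and it kept its direction under TMM scaling with a liver to embryo ratio of 0.640. Per exon length cyp3c1 exceeded cyp3c1l2 17.2 times in livers and 1.77 times in embryos. The other cyp3c features by current symbol were cyp3c2 (LOC558473), with 78 and 42 reads, and cyp3c4 (zgc:153269), with 167 and 233 reads in the liver and embryo pools.

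Reads with several positions affected some subfamilies and hardly touched others. Unique reads made up 90.5% of the reads of the 22 genes in livers and 96.5% in embryos, against 80.2% and 85.1% of all gene reads. By family the unique shares in livers and embryos were 74.7% and 83.8% in family 1. They were 93.85% and 93.8% in family 2, and 99.6% and 99.4% in family 3. In 11 of the 20 genes with at least 10 reads in both pools the share was above 90% in both, among them cyp3a65, cyp3c1, cyp2j28, cyp2j27, cyp2j30 and cyp1d1. Within the array the cyp2p genes and cyp2j20 shared the most, and the cyp2p genes had 80.6% of the summed liver reads and 77.5% of the summed embryo reads unique. The sums of unique reads of the 5 cyp2p genes gave a ratio of 4.11, against 3.72 with total reads, which was called under TMM scaling, at 9.50. In cyp2j23 the unique share was 46.9% in livers (40.5 to 53.4) and 66.6% in embryos (61.4 to 71.5), and in cyp2j20 it was 42.4% (33.3 to 51.8) and 66.2% (53.4 to 77.4). These are 2 of 3 genes, of 20 compared, whose intervals for the pools did not overlap, the third being cyp2j28 at 99.9% and 99.4%. The share of all features with such intervals apart was not computed, so the count is not a trait of these genes. The ratio of cyp2j23 was 0.608 with total reads and 0.455 with unique reads, and that of cyp2j20 was 1.59 and 1.08.

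In cyp1a the unique share was close in both pools, 71.4% in livers (70.4 to 72.4) and 71.6% in embryos (66.3 to 76.4), so its ratio hardly moved with unique reads, to 23.5. Its reads across exon junctions were all unique, 818 of 818 in livers and 43 of 43 in embryos, while 2315 other gene reads in livers had several positions. A feature of the myeloperoxidase gene mpx, which the files list at more than 1 position, overlaps the cyp1a region over 623 bases and had 1 read in livers and 2 in embryos. Where the shared reads of cyp1a lie was not tested.

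**Figure D5:**
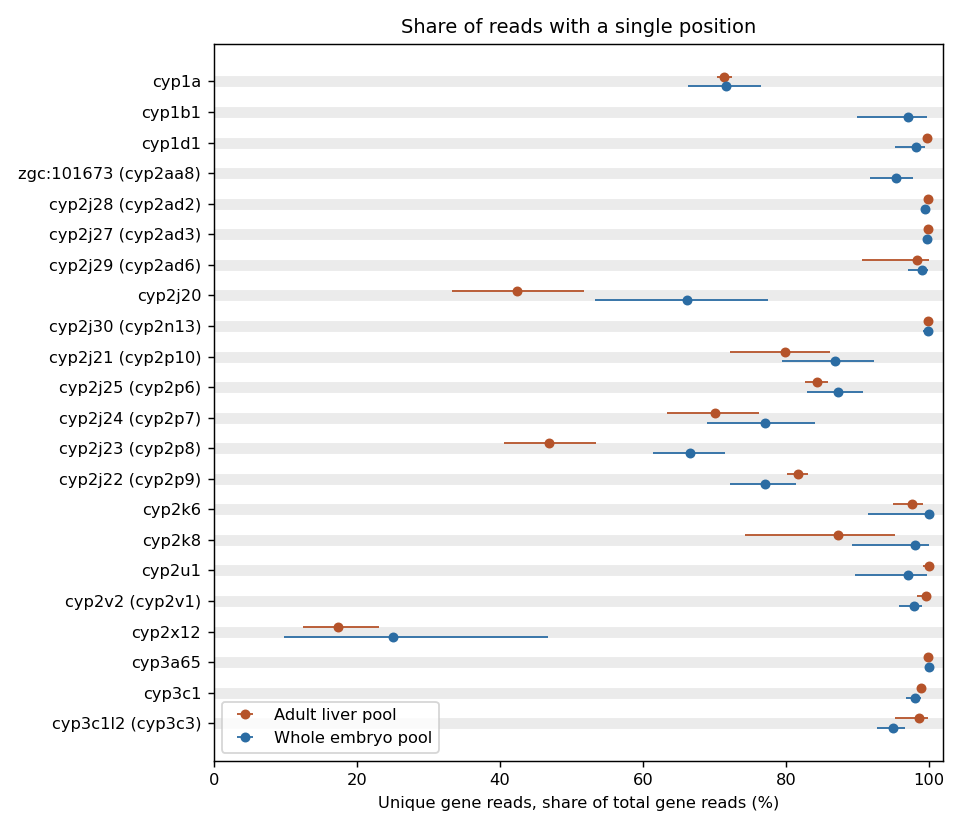
Unique gene reads as a share of total gene reads (x axis, percent) for each gene and pool with at least 10 reads, the liver pool above the embryo pool in each row, with bars for the exact 95% interval. Of 20 genes shown for both pools 11 lie above 90% in both, while cyp2x12 lies at 17.4% in livers and 25% in embryos.

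The choice of genes left out 23 features that current RefSeq symbols place in families 1 to 3. zgc:101673 (cyp2aa8) likewise has no cyp name but was kept, and it is among the 3 of the 22 genes called in embryos. The 23 features left out had 4 genes called higher in livers and 0 in embryos, beside 3.35% and 30.9% of all measured features. Under TMM scaling 11 and 0 were called, beside 8.06% and 15.8%. With exon reads 4 and 1 of 22 measured were called, beside 3.38% and 36.4% of all features. The 4 called with library totals were cyp2x10.2, cyp2aa2, the vitamin D 25-hydroxylase cyp2r1 (LOC563369), with 1214 reads in livers and 97 in embryos and a ratio of 11.0 (8.91 to 13.6), and cyp2k19 (zgc:198195). The most abundant was cyp2y3 (zgc:110692), with 8930 reads in livers and 1998 in embryos, whose ratio of 3.92 (3.73 to 4.11) was called under TMM scaling, at 9.997. All 45 features together took 0.428% of the liver library and 0.171% of the embryo library, and the 22 genes held 68.8% of these reads in livers and 73.4% in embryos. A list of 15 other features named cyp, of families that make and break down steroids, retinoids, sterols and fatty acids, had 13 measured members, of which 2 were called higher in livers and 8 in embryos, beside 3.35% and 30.9% of all features. Under TMM scaling 5 were called higher in livers and 6 in embryos, beside 8.06% and 15.8%, with cyp46a1, cyp24a1l and cyp51 added in livers. Those higher in livers with library totals were cyp4v2 (now cyp4v2a) and cyp4 (now cyp4t8), of a fatty acid-hydroxylating family.

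With library totals few of the partners of these enzymes were called. Of 10 measured electron donors and related heme proteins, 0 were called higher in livers and 1 in embryos, beside 3.35% and 30.9% of all measured features. That gene was por (pora), 1 of a pair of P450 oxidoreductase genes, with 146 reads (11.2 CPM) in livers and 805 reads (70.6 CPM) in embryos. The other, porb (zgc:63480), had 4461 reads (343 CPM) in livers and 1363 reads (119 CPM) in embryos, a ratio of 2.87 (2.70 to 3.05) called under TMM scaling. Per exon length porb exceeded por 46.3 times in livers and 2.50 times in embryos. Cytochrome b5 cyb5a had 4713 reads in livers and 1670 in embryos, a ratio of 2.47 (2.34 to 2.62). The heme-binding pgrmc1 had 3759 and 1284, a ratio of 2.57 (2.41 to 2.74). Both were called higher in livers under TMM scaling and with size factors, though not with library totals. The call of por was lost under both scalings. Of the 10, 3 were called higher in livers and 0 in embryos under TMM scaling, beside 8.06% and 15.8% of all measured features. Size factors gave the same counts, beside 8.19% and 15.5%.

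Genes of the receptors that act on families 1 and 3 were also counted. Their part in the ratios of cyp1a and cyp3a65 was not tested. The 9 measured genes of the aryl hydrocarbon receptor list had 0 called higher in livers and 2 in embryos, beside 3.35% and 30.9% of all features, so neither count stands above the background. Under TMM scaling 0 and 1 were called, beside 8.06% and 15.8% of all features, and with exon reads 0 and 3, beside 3.38% and 36.4%. ahr2, the main dioxin receptor of zebrafish, had 1468 reads (113 CPM) in livers and 1322 reads (116 CPM) in embryos, a ratio of 0.973 (0.903 to 1.05) that was 2.48 under TMM scaling. Its paralog ahr1b had 21 reads in livers and 431 in embryos, ahr1a had 29 and 19, and the repressor ahrrb had 4 and 21. Of their partners, arnt had 138 reads in livers and 181 in embryos, and arnt2 had 94 and 638. With library totals ahr1b and arnt2 were the called genes. The call of arnt2 was lost under TMM scaling, at a ratio of 0.330, and with size factors. Of other genes that the receptor induces, nqo1 stood at a ratio of 1.41 (1.28 to 1.555) and tiparp at 0.330 (0.275 to 0.394). The pregnane X receptor gene nr1i2 had 449 reads (34.5 CPM) in livers and 282 reads (24.7 CPM) in embryos, a ratio of 1.40 (1.20 to 1.62). Among 11 measured nuclear receptors of the xenobiotic list, nr1h4 and hnf4a were called higher in livers and 0 in embryos, beside the same shares of all features. With exon reads 1 was called in each pool, beside 3.38% of all features in livers and 36.4% in embryos. The retinoid X receptor genes with at least 10 reads in either pool ranged from rxrab, with 7 reads in livers and 32 in embryos, to rxrgb (zgc:92183), with 387 and 220 reads and a ratio of 1.54 (1.30 to 1.83).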

How the data were processed

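The files hold, per the file headers, deposited read counts for each gene feature (unique and total gene, exon, exon-exon and intron-exon reads) and the authors' RPKM, which equalled total exon reads scaled to exon length and to the sum of total gene reads. No aligner, annotation or build is named (not given in the sources used here), and positions served for distances, gene order and overlaps. Total gene reads were the main counts, and CPM was computed from the deposited counts and their sums. Ratios carry exact Clopper-Pearson intervals (95%) on the conditional binomial (SciPy 1.17.1, Python 3.11.15), a gene needed 10 reads and an interval at or beyond 4-fold to be called, and a count of 0 was taken as 3 for medians and plots. TMM factors came from edgeR 4.0.16 and size factors from DESeq2 1.42.0 (R 4.3.3). Counting intervals cover counting error only. Current symbols and chromosome numbers came from the RefSeq table of GRCz12tu, used for names only: 10 of the 22 genes matched by symbol and 12 by synonym. Genes with at least 100 reads in either pool were to be described one by one, with called genes also named. The other genes with values were named after their values were seen. The members and lists were chosen with earlier results of these data known. Overlaps and paralogs make single values of genes with shared reads uncertain. The deposited median coverage was not used here.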

Additional observations from a re-analysis of the deposited data

How the results depend on the processing

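Scaling moved every ratio by the same factor, and read type moved levels of genes with shared reads. With TMM factors and with size factors, 10 genes were called higher in livers in place of 6, beside 8.06% and 8.19% of all measured features. The median log2 ratio of the 22 genes was 1.92 and 1.95, that of all measured features -0.25 and -0.22. All 6 liver calls were kept under both scalings, as were 2 of the 3 embryo calls. Summed ratios of cyp2j, cyp2k, family 2 and all 22 genes became called, at 8.96, 7.53, 8.27 and 5.98 with TMM factors and 9.14, 7.69, 8.44 and 6.11 with size factors, and the sum of family 3 turned to 2.23 and 2.28. Ratios of cyp2j27, cyp2j23, cyp2k8, cyp2v2 and cyp3a65 turned above 1, at 1.60, 1.55, 2.15, 2.44 and 1.96 with TMM factors and 1.64, 1.59, 2.19, 2.49 and 1.999 with size factors. With TMM factors 3 electron donors were called higher in livers and 0 in embryos, 1 gene of the aryl hydrocarbon receptor list in embryos, and 5 of the other cyp families in livers. Of all measured features 8.06% were then called higher in livers and 15.8% in embryos. With unique reads 7 genes were called higher in livers, beside 3.45% of all measured features. There cyp2x12 lost its call, the median was 0.27, and cyp2j21 at 0.984 and cyp2v2 at 1.03 crossed 1. With unique exon reads 15 of 42 RPKM values moved, among them liver cyp2x12 to 1.17 against 7.18, cyp2j23 to 5.68 against 12.1 and cyp2j20 to 2.27 against 4.84. With exon reads 15 of 42 unique shares moved, and the median of all features was -1.90. A fold limit of 8 left 1 gene called in livers, and the share of all features called at that limit was not computed. No count minimum gave a median of -1.41 for all features, and a minimum of 50 one of 0.67 for the 22 genes. Taking all 45 features by current symbol, an alternative chosen after seeing the data, gave 10 liver calls and a median of 0.70. Of all measured features 3.35% were called higher in livers with library totals. Depth limits the genes with under 100 reads in 1 pool or both, which are cyp1b1, cyp2aa8, cyp2j29, cyp2j20, cyp2k6, cyp2k8, cyp2u1 and cyp2x12.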
